A study of Homo sapiens with 12 samples.

Results

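Solute carriers are the membrane proteins that move amino acids, sugars, ions, metals, vitamins and metabolites across the plasma membrane and the membranes of organelles, mostly by facilitated diffusion, exchange or cotransport with sodium or protons. Those outside the SLC25 family, whose members serve mainly the inner mitochondrial membrane, were followed here while transcription was blocked. The members were selected on their symbols and on raw counts: SLC symbols of the family-A-number form, without SLC25A, averaging 10 counts or more across the 12 libraries, and without SLC11A2, SLC40A1 and SLC7A11, which the rule left out. This gave 129 genes of 37 families among 26334 gene symbols in the table and 12032 symbols that passed the same count threshold. Of 286 solute carrier symbols outside SLC25, 61 had no count in any library and 94 had a mean above 0 and below 10 counts.

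The cells were A673, an established Ewing sarcoma line, under the label shA673-1c, whose prefix and suffix the labels do not explain. All groups grew in high-glucose DMEM with serum, antibiotics, blasticidin and zeocyn, and received 5 µM actinomycin D (ActD), which blocks transcription, for 0, 1, 2 or 4 h. Each time had 3 libraries, called biological replicates, made from poly(A) RNA with a strand-specific kit. Total counts ranged from 9147018 to 11194705 per library. The labelled cell type was checked with fixed markers: EWSR1 had 3259 to 4455 counts per library, STEAP1 499 to 708 and PRKCB 1015 to 1789. Counts of FLI1 went from 791 to 908 at 0 h to 143 to 257 at 4 h, those of NR0B1 from 377 to 451 to 69 to 105, and those of NKX2-2 from 63 to 87 to 7 to 16. CD99, a gene of the pseudoautosomal region, was listed at 0 in all libraries, whether its reads were lost in counting was not tested, and PECAM1, PTPRC and EPCAM had at most 6 counts. GAPDH and ACTB had slopes of 0.15 and 0.12 log2 units per hour, and the short-lived MYC had a slope of -1.12.

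Many solute carriers work in partnership. SLC3A2 is the heavy chain that carries light chains such as SLC7A5 to the cell surface, and SLC1A5, SLC38A1 and SLC38A2 bring in glutamine and other neutral amino acids. Zinc is removed from the cytosol by SLC30 proteins and brought into it by SLC39 proteins. After transcription is blocked, the level of an mRNA relative to the others falls when it is degraded faster than they are.

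A slope is the log2 change per hour of ActD in TMM-scaled counts, and the standard error (SE) follows it. The table has no spike-in, so a positive slope means a gain relative to the other transcripts, not more molecules. In bulk RNA, fewer cells and less RNA per cell also cannot be told apart. Among the 129 members, 18 fell and 45 rose at an adjusted p below 0.05, that is 14.0% and 34.9%. Of all tested genes, 32.1% fell and 30.7% rose. With the replicate number as a block, 25 members fell and 56 rose (19.4% and 43.4%, against 34.8% and 36.2% of all tested genes). The median slope was 0.05 for the members and 0.01 for all tested genes. When GAPDH and ACTB set the scale, the median of all tested genes moved to -0.13 and that of the members to -0.09, 72 members fell (55.8%, against 64.2% of all tested genes), and 0 rose (0 also at an unadjusted p below 0.05, edgeR). The distance between the members' median and that of all genes was 0.0359 with TMM and 0.0355 with GAPDH and ACTB. All 18 falling members also fell under library totals, DESeq2's size factors and GAPDH plus ACTB. The median slope of all tested genes was -0.03, 0.01 and -0.13 under these. They left slopes about as they were or lowered them, so they could hardly undo a fall. Of the 45 rising members, 20 rose with library totals, and with GAPDH and ACTB 33 had a negative slope, 12 of them past the test.

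Comparing 4 h with 0 h directly, 19 members were lower and 43 higher, against 31.6% lower and 28.7% higher of all tested genes. Between 1 and 4 h, 15 members were lower and 27 higher, against 28.5% and 25.4% of all tested genes. These comparisons share their libraries with the slope. With GAPDH and ACTB, 65 members were lower and 0 higher at 4 h than at 0 h, and 50 lower and 0 higher than at 1 h, against 63.3% and 52.6% of all tested genes lower (no member was higher at an unadjusted p below 0.05 in either, edgeR). Leaving out 1 replicate number gave 24 to 35 members higher at 4 h than at 0 h (21.0 to 26.1% of all tested genes). It gave 12 to 25 higher than at 1 h (16.7 to 22.1%), and both counts were lowest without replicate 2. In the fit with a replicate block, 48 members were higher and 22 lower at 4 h than at 1 h (37.2% and 17.1%, against 35.5% and 32.9% of all tested genes).

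The members' summed share of all counts was 0.823 to 0.867% at 0 h and 0.766 to 0.809% at 4 h, and these ranges did not overlap (exact permutation test, two-sided, p = 0.1, the smallest that 3 against 3 libraries allow). On balance this drop was close to the loss of SLC38A2, as falls and gains of the other members offset each other in the sum. Without SLC38A2, the share was 0.780% ± 0.0244 at 0 h and 0.779% ± 0.0216 at 4 h (SD, n = 3).

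Levels between genes were compared per length, as TMM-scaled CPM, the counts relative to library size, per kilobase of the Ensembl canonical transcript. At 0 h, SLC5A6, which imports biotin and pantothenate, stood at 193 ± 27.6 CPM per kb (SD, n = 3), SLC3A2 at 177 ± 26.5, SLC1A5 at 168 ± 10.8, SLC38A2 at 136 ± 3.00 and SLC7A5 at 115 ± 17.5. The values of the first 3 overlapped. SLC38A2 lay below the lowest library of each of these and above the highest library of SLC7A5, and the median member was at 5.62 CPM per kb. By 4 h, SLC38A2 had 29.7 ± 3.71 CPM per kb and had moved from rank 4 to rank 19 of the 129, while SLC5A6 was still the highest with 254 ± 37.9.

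SLC38A2, a sodium-coupled importer of glutamine, alanine and other small neutral amino acids, lost its mRNA fastest. It lies on chromosome 12 (GRCh38, chr12:46358188-46372773, minus strand). It had 636, 663 and 657 CPM at 0 h, 525, 533 and 510.3 at 1 h, 309, 308 and 307 at 2 h and 145, 159 and 124 at 4 h. The 4 groups were fully separated, each below the one before. Its slope was -0.57 ± 0.02 (SE; adjusted p = 2.43e-10), a half-life of 1.76 h relative to the scaling, and 0.219 of its 0 h level was left at 4 h.

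SLC30A1 (chr1:211571568-211579161, minus strand), the zinc exporter of the plasma membrane, followed. Its CPM was 43.4, 37.0 and 28.5 at 0 h, 34.5, 29.3 and 22.0 at 1 h, 22.4, 20.3 and 15.8 at 2 h and 11.6, 9.86 and 8.06 at 4 h. Replicate 3 was the lowest at every time, and the 0 and 4 h groups did not overlap. The slope was -0.48 ± 0.05 (adjusted p = 2.73e-07), a half-life of 2.10 h relative to the same scaling.

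Among organic ion and monocarboxylate carriers, SLC22A23, an orphan member of the organic ion family, had 4.03, 3.85 and 4.61 CPM at 0 h and 1.54, 1.84 and 1.79 at 4 h, with a slope of -0.32 ± 0.05 (adjusted p = 4.61e-05). It averaged only 32.1 counts per library, and exons of PSMG4 on the opposite strand cover 20.9% of its exon bases. SLC16A13, a monocarboxylate carrier, had 5.60, 3.76 and 6.83 CPM at 0 h and 2.48, 2.32 and 2.46 at 4 h, with a slope of -0.30 ± 0.06 (adjusted p = 0.00018). In both genes every 4 h library lay below every 0 h library.

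SLC5A3, the sodium-coupled importer of myo-inositol, had 57.9, 43.1 and 55.4 CPM at 0 h, 46.0, 46.9 and 53.6 at 1 h, 45.05, 37.8 and 42.3 at 2 h and 25.7, 22.1 and 28.6 at 4 h. Its 1 and 2 h libraries overlapped those of 0 h, all 4 h libraries lay below all others, and it had a slope of -0.26 ± 0.03 (adjusted p = 3.27e-06). SLC19A2, a thiamine importer, had 16.7, 16.1 and 17.6 CPM at 0 h, 13.3, 11.2 and 13.8 at 1 h, 11.6, 9.61 and 12.4 at 2 h and 9.23, 9.47 and 8.51 at 4 h. Its 1 h libraries already lay below all 0 h libraries, and the slope was -0.22 ± 0.03 (adjusted p = 2.54e-05).

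Both SLC10 members fell. SLC10A7, linked to calcium handling and skeletal development, had 38.6, 35.9 and 36.1 CPM at 0 h, 31.9, 30.8 and 30.2 at 1 h, 22.6, 22.1 and 23.4 at 2 h and 20.4, 19.1 and 18.4 at 4 h. The groups did not overlap at any step, and the slope was -0.24 ± 0.02 (adjusted p = 3.37e-07). SLC10A3 had 16.6, 17.0 and 13.2 CPM at 0 h and 14.0, 7.93 and 11.2 at 4 h, which overlapped, with a slope of -0.14 ± 0.04 (adjusted p = 0.0126). Its call was lost without replicate 2. SLC29A3, a nucleoside carrier of lysosomes, had 10.9, 9.44 and 8.96 CPM at 0 h and 6.04, 5.51 and 4.70 at 4 h, apart from each other, and a slope of -0.21 ± 0.04 (adjusted p = 0.00054).

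Both type III phosphate importers fell as well. SLC20A1 (chr2:112645939-112663825, plus strand) had 194, 191 and 195 CPM at 0 h, 199, 173 and 180.3 at 1 h, 166, 144 and 146 at 2 h and 136, 118 and 113 at 4 h. Its 1 h libraries overlapped those of 0 h, those of 2 and 4 h lay below them, and its slope was -0.17 ± 0.02 (adjusted p = 8.98e-07). GENCODE lists 3 processed pseudogenes of SLC20A1, so its reads may have been divided in counting. SLC26A2, a sulfate carrier, fell from 164 ± 11.2 to 114 ± 15.3 CPM (SD, n = 3) with a slope of -0.13 ± 0.02 (adjusted p = 0.000209). The other falling members were SLC30A7, SLC45A4, SLC38A1, SLC20A2, SLC33A1, SLC7A1 and SLC30A6, with slopes from -0.13 to -0.06. Relative to TMM scaling, the half-lives of the 18 falling members ran from 1.76 to 17.5 h (median 6.51 h). Of these, 5 were under 4 h and 6 over 8 h, and values above 4 h reach past the end of the course. With GAPDH and ACTB the slopes of these members were steeper, as -0.195 against -0.057 in SLC30A6, so the half-lives depend on the scaling. Mean CPM dropped at each of the 3 steps in 13 of the 18.

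**Figure D1:**
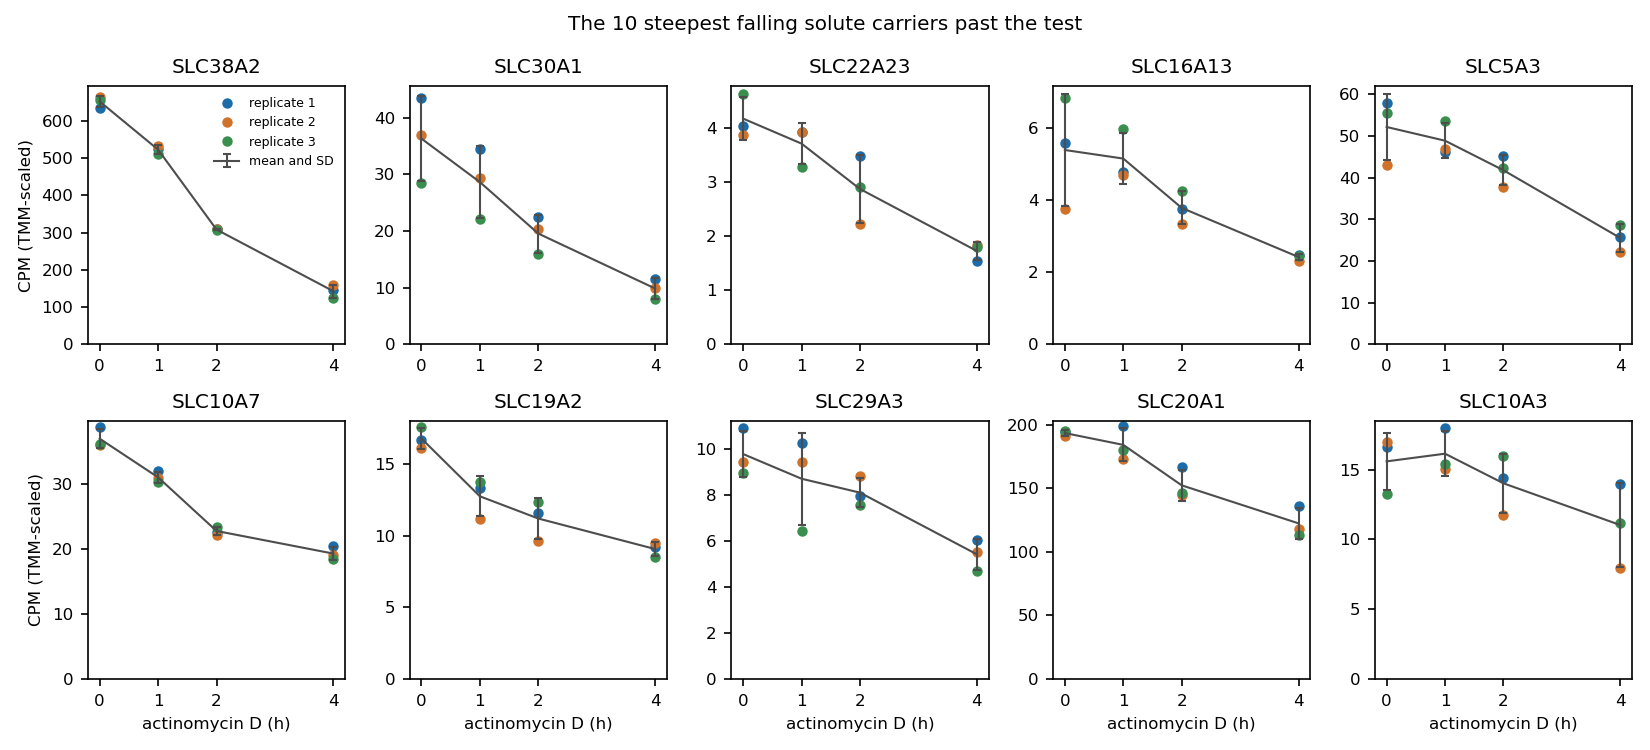
TMM-scaled CPM of the 10 members with the steepest negative slopes among those past the test that moved alike in all 3 replicates, against hours of actinomycin D, with 1 point per library, colours for replicates, and the mean with SD (n = 3) in grey. SLC38A2 drops from 636 to 663 CPM at 0 h to 124 to 159 at 4 h, and SLC10A3 is the only one of the 10 whose 0 and 4 h libraries overlap. All 10 also fell under the other scalings tried, which left slopes about as they were or lowered them.

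The sequences shown next place an AU-rich element among carriers that fell, rose or did not pass the test. AU-rich elements in 3' UTRs are bound by proteins that speed up or slow down decay. Windows of 30 bases around the nonamer TTATTTATT, in capitals, were read 5' to 3' from the 3' UTRs of GENCODE version 44 canonical transcripts on GRCh38, on the transcript's strand. SLC30A1, SLC19A2, SLC26A2 and SLC38A1 fell, SLC16A7 did not pass the test, and SLC7A6 and SLC7A5 rose with TMM scaling and did not pass with GAPDH and ACTB.
SLC30A1, chr1:211573139-211573168, minus strand: tagcagagaaTTATTTATTtctttacaatg
SLC19A2, chr1:169465190-169465219, minus strand: attgtgacgaTTATTTATTtctgtaaaatt
SLC26A2, chr5:149983870-149983899, plus strand: cttggccaagTTATTTATTtttaatctctc
SLC26A2, chr5:149984880-149984909, plus strand: tcttacagccTTATTTATTtttaagtttgt
SLC38A1, chr12:46188610-46188639, minus strand: acaataatgtTTATTTATTatacatccaga
SLC16A7, chr12:59782053-59782082, plus strand: tcttcattcgTTATTTATTtctaacactgt
SLC7A6, chr16:68297813-68297842, plus strand: ttatattcccTTATTTATTgatatttagtc
SLC7A5, chr16:87830272-87830301, minus strand: ggcaccatgtTTATTTATTtccagtggtca

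The nonamer was found in 17 of 128 members with a 3' UTR (13.3%) and in 10.1% of 11384 tested protein-coding genes with one. It stood in 4 of the 18 members that fell (22.2%), 7 of the 45 that rose (15.6%) and 6 of 65 that did not pass (9.23%). Among all tested protein-coding genes with a 3' UTR, it stood in 13.2% of those that fell and 6.3% of those that rose. SLC38A2, SLC22A23, SLC16A13 and SLC5A3, which are 4 of the 5 steepest, had none. A match is a description of these letters and not a shown binding site. The shorter pentamer ATTTA, which every nonamer holds, occurred in 15 of the 18 members that fell (median 10 copies), in 29 of the 45 that rose (median 1 copy) and in 74.8% of the tested protein-coding genes (median 2 copies). Those shares were 83.3% and 64.4% of the members, close to the 85.5% of all tested protein-coding genes that fell and the 60.1% of those that rose. Only the transcript strand was searched for either motif.

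The falling members had longer 3' UTRs, with a median of 3743 bases against 1172 in those that rose and 1406 in all tested protein-coding genes. Their transcripts were also lower in GC, with a median of 41.2% against 56.8% and 47.9%. Of all tested protein-coding genes, those that fell had medians of 1896 bases and 45.5% GC, and those that rose 860 bases and 53.05%. Across 128 members, Spearman's rho of the slope was -0.323 with the number of pentamers, -0.285 with 3' UTR length and 0.428 with GC content, and across the tested protein-coding genes it was -0.305, -0.268 and 0.27. These features go together in a transcript, genes are not independent replicates, and the part of base composition in the slopes was not tested. There were exceptions at both ends. SLC16A13, SLC29A3 and SLC10A3 fell with no pentamer, whereas SLC35A3, a nucleotide sugar carrier with 59 pentamers in 13158 bases, rose by 0.07 ± 0.02 per hour with TMM (adjusted p = 0.0167) and not with GAPDH and ACTB. SLC16A7, a monocarboxylate carrier with 43 pentamers and 3 nonamers, had a slope of -0.0047.

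The rising members gained relative to the other transcripts, and none of the gains in the following sentences held with GAPDH and ACTB. SLC22A17, a receptor of lipocalin-bound iron in the organic ion family, had 1.38, 2.02 and 3.28 CPM at 0 h and 3.31, 4.64 and 5.48 at 4 h, with a slope of 0.23 ± 0.08 (adjusted p = 0.0152). SLC4A3 and SLC4A2 exchange chloride for bicarbonate. SLC4A3 had 1.38, 1.64 and 1.60 CPM at 0 h and 2.84, 2.03 and 3.58 at 4 h, with a slope of 0.22 ± 0.06 (adjusted p = 0.00563). SLC9A5, a sodium-proton exchanger, had 4.03, 3.56 and 4.17 CPM at 0 h and 6.04, 6.28 and 8.95 at 4 h, with a slope of 0.19 ± 0.06 (adjusted p = 0.0155). These 3 were low genes with at most 56.9 counts on average. The groups did not overlap, yet SLC22A17 and SLC9A5 lost their calls without replicate 2, and SLC4A3 without replicate 1 or 3.

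The next 7 members, with more counts, held their rises under TMM, library totals and without any 1 replicate number, but not with GAPDH and ACTB. SLC38A10 had 66.3, 49.5 and 67.1 CPM at 0 h and 86.7, 96.5 and 111 at 4 h, with a slope of 0.17 ± 0.03 (adjusted p = 4.12e-05). SLC38A5, which like SLC38A2 carries small neutral amino acids, had 51.4, 54.6 and 56.1 CPM at 0 h and 82.7, 86.5 and 81.6 at 4 h, with a slope of 0.16 ± 0.02 (adjusted p = 8.8e-07). SLC4A2 had 282, 231 and 259.8 CPM at 0 h, 309, 260.4 and 280.0 at 1 h, 358, 296 and 292 at 2 h and 426, 372 and 384 at 4 h. All its 4 h libraries were above all others, and its slope was 0.15 ± 0.02 (adjusted p = 7.56e-06). SLC37A4, the glucose 6-phosphate carrier of the endoplasmic reticulum, SLC29A4, a monoamine carrier, SLC27A5, a bile acid and fatty acid CoA ligase, and SLC41A3, a magnesium carrier, had slopes of 0.14 to 0.15 and separate 0 and 4 h groups. SLC41A3 had 50.5, 55.1 and 53.5 CPM at 0 h and 79.5, 76.7 and 77.1 at 4 h (adjusted p = 1.95e-06).

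**Figure D2:**
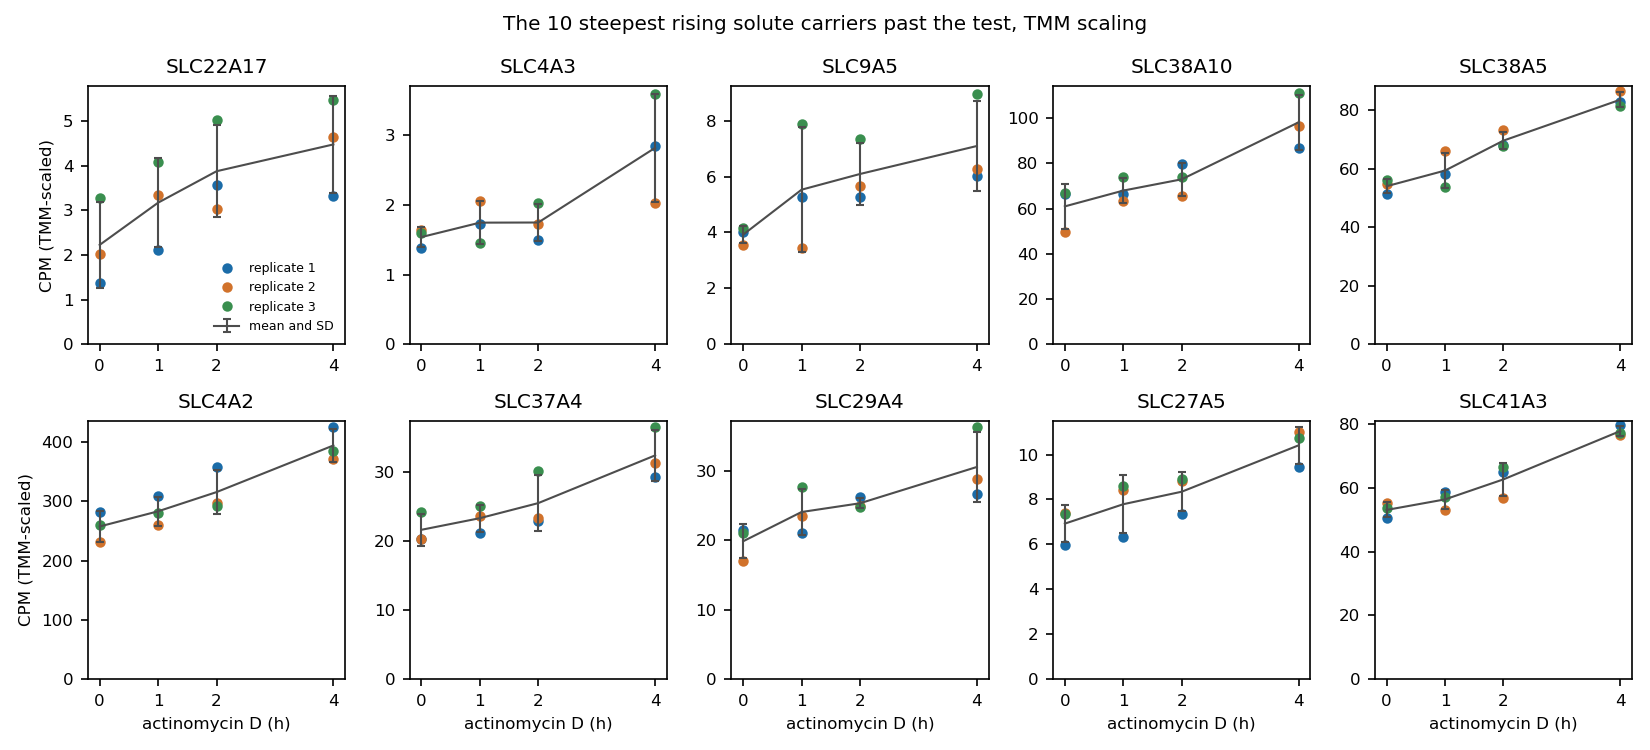
TMM-scaled CPM of the 10 members with the steepest positive slopes among those past the test that moved alike in all 3 replicates, against hours of actinomycin D, with 1 point per library, colours for replicates, and the mean with SD (n = 3) in grey. The 0 and 4 h libraries do not overlap in any panel; with GAPDH and ACTB scaling none of the 10 passed the test.

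The substrate classes were built from the families. Counts with TMM are read beside the 32.1% falling and 30.7% rising of all tested genes. Counts with GAPDH and ACTB are read beside the 64.2% of all tested genes that fell under that scaling. Among 25 amino acid carriers, 3 fell (SLC38A2, SLC38A1 and SLC7A1) and 8 rose with TMM, led by SLC38A10 and SLC38A5, whereas 12 fell with GAPDH and ACTB. SLC7A5 also rose with TMM and had a slope of -0.04 with GAPDH and ACTB. Of 23 metal and haem carriers, 3 fell and 11 rose with TMM, and 16 fell with GAPDH and ACTB. The 3 that fell were all SLC30 zinc efflux genes: SLC30A1, SLC30A7, which loads zinc into the secretory pathway (slope -0.13 ± 0.02, adjusted p = 0.000205), and SLC30A6 (-0.06 ± 0.02, adjusted p = 0.0105). The SLC30 family was split, as 2 of its 6 genes rose with TMM, SLC30A3 the most (0.14 ± 0.05, adjusted p = 0.0182). With GAPDH and ACTB, 5 of the 6 fell. Of the 11 SLC39 zinc importers, 6 rose with TMM and the other 5 did not pass, whereas 6 fell with GAPDH and ACTB. Their slopes ran from -0.03 in SLC39A10 to 0.13 in SLC39A1. The annotation places SLC39A1 under another gene on its own strand for 95.9% of its exon bases.

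Ion and pH carriers had 1 falling member of 22, SLC26A2, and 11 rising ones with TMM, against 9 falling with GAPDH and ACTB. Chloride and bicarbonate carriers of the SLC4 and SLC12 families gave 3 of 5 and 4 of 6 of these rises, none of which held with GAPDH and ACTB. Sugar carriers had 2 falling members of 14, SLC5A3 and SLC45A4 (slope -0.09 ± 0.03, adjusted p = 0.00533), and 3 rising ones with TMM, SLC5A6, SLC37A4 and SLC45A3, against 8 falling with GAPDH and ACTB. SLC5A6 is counted here by its family, which also holds sodium-glucose cotransporters. None of the 6 SLC2 facilitative sugar carriers had a slope past the test with TMM and no block, whereas 2 fell with library totals and 3 with GAPDH and ACTB. Of 14 carriers of carboxylates, bile acids and lipids, 3 fell and 3 rose with TMM, and 8 fell with GAPDH and ACTB.

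Carriers of nucleosides, nucleotide sugars and acetyl-CoA gave 2 falling members of 10, SLC29A3 and SLC33A1, the acetyl-CoA carrier (slope -0.09 ± 0.02, adjusted p = 0.00257), and 5 rising ones with TMM, against 7 falling with GAPDH and ACTB. The SLC29 family was split, with the lysosomal SLC29A3 falling and SLC29A1, SLC29A2 and SLC29A4 rising with TMM. With GAPDH and ACTB scaling, 2 of the 4 fell. Of 10 vitamin and choline carriers, SLC19A2 fell and 3 rose with TMM, against 5 falling with GAPDH and ACTB. The highest slope of all members was that of SLC44A5, a choline carrier with 0.884, 1.06 and 0.710 CPM at 0 h and 2.48, 0.967 and 2.02 at 4 h. It averaged 11.9 counts, its groups overlapped, it was lower at 4 h than at 0 h in replicate 2, and its adjusted p of 0.0393 was lost without replicate 1 or 3. Of 7 carriers of peptides, amines and organic ions, SLC22A23 fell and SLC22A17 rose with TMM, against 4 falling with GAPDH and ACTB. Of 4 phosphate and organic anion carriers, SLC20A1 and SLC20A2 fell, while SLC17A7 had a slope of 0.11 ± 0.09 (adjusted p = 0.3).

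**Figure D3:**
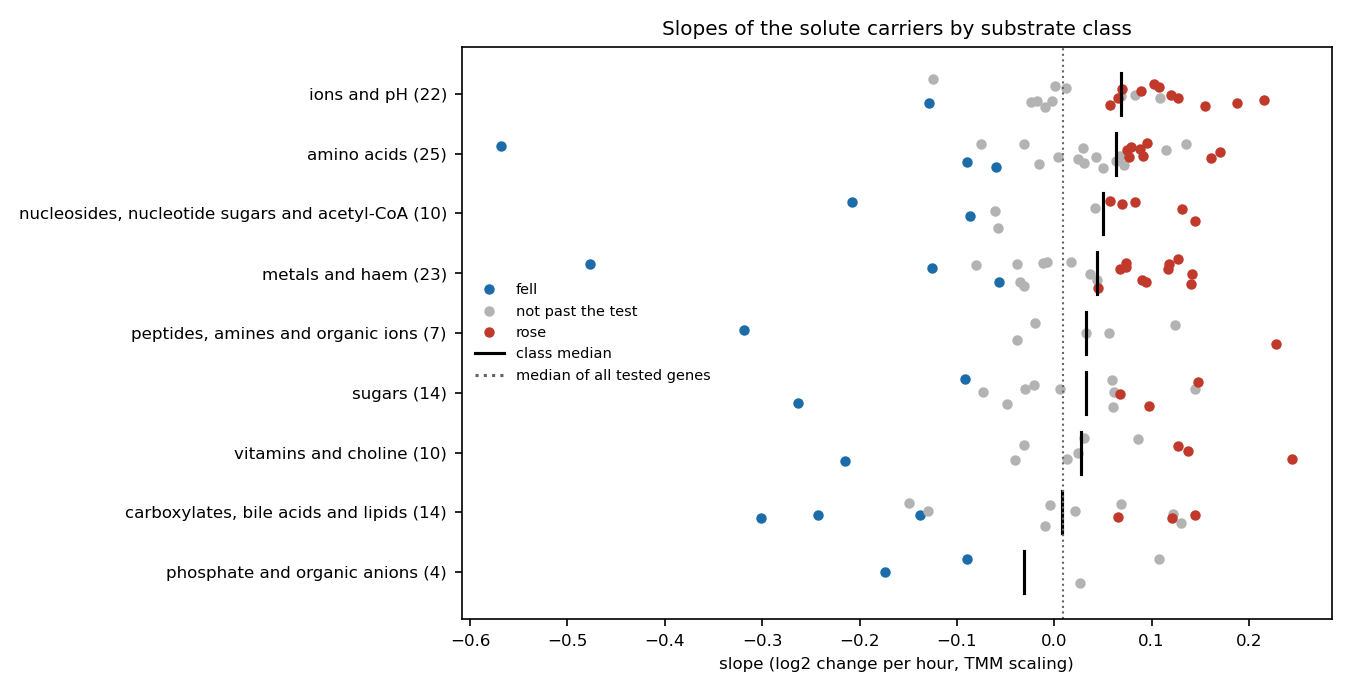
Slope in log2 change per hour (TMM scaling) of each of the 129 members, by substrate class with the number of members in brackets, coloured by whether it fell, rose or did not pass the test; points are spread vertically for legibility. Class medians lie between -0.03 and 0.07, the median of all tested genes is 0.01, and SLC38A2 and SLC30A1 stand far to the left; no rise held with GAPDH and ACTB scaling.

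Pairs of carriers that share a substrate or a complex were compared within each library, where the ratio of the 2 CPM values does not depend on the scaling. For 5 of 8 pairs the log2 ratio did not overlap between 0 and 4 h. How often the ratios of other gene pairs part in this way was not counted. With 32.1% of all tested genes falling and 30.7% rising with TMM, the count says nothing particular about these pairs. The exact permutation test, two-sided, gave p = 0.1 for each of these, the smallest possible with 3 against 3, and 0.16 after adjustment over the 8 pairs.

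The glutamine carriers changed order in CPM, which ignores transcript length, but not per kb. SLC38A2 had 136 and SLC38A1 34.6 CPM per kb at 0 h. At 4 h they had 29.7 ± 3.71 and 27.1 ± 2.21 (SD, n = 3). The log2 ratio of SLC38A1 to SLC38A2 was -1.06, -1.34 and -1.26 at 0 h and 0.713, 0.449 and 0.713 at 4 h. SLC38A1 itself had 305, 262 and 274 CPM at 0 h and 238, 217 and 203 at 4 h, with a slope of -0.09 ± 0.02 (adjusted p = 0.00192), and its 1 and 2 h libraries overlapped those of 0 h. The heteromeric exchanger of large neutral amino acids parted too. The light chain SLC7A5 had 588, 547 and 434 CPM at 0 h and 754, 722 and 581 at 4 h, with a slope of 0.10 ± 0.03 (adjusted p = 0.0235). The heavy chain SLC3A2 had 363, 364 and 277 CPM at 0 h and 308, 304 and 210.4 at 4 h. Its slope was -0.08 ± 0.04 (adjusted p = 0.0978, and 1.77e-06 with the replicate block). SLC3A2 also fell with library totals (-0.115, adjusted p = 0.0115) and with GAPDH and ACTB (-0.214, adjusted p = 5.97e-06). In both genes replicate 3 was the lowest at every time, and the log2 ratio of SLC7A5 to SLC3A2 went from 0.645 ± 0.0547 to 1.33 ± 0.112 (SD, n = 3). The rise of SLC7A5 was lost with library totals, with GAPDH and ACTB and without replicate 2, and GENCODE lists 2 transcribed pseudogenes of it.

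The zinc pair moved furthest apart. The log2 ratio of SLC30A1 to SLC39A6 went from -2.27 ± 0.285 to -4.48 ± 0.25 (SD, n = 3). SLC39A6 had 176, 172 and 171 CPM at 0 h, 177, 169 and 169 at 1 h, 199.8, 194 and 196 at 2 h and 218, 218 and 214 at 4 h. It rose by 0.09 ± 0.01 per hour with TMM (adjusted p = 1.35e-05) and fell by 0.05 with GAPDH and ACTB (adjusted p = 0.0318). The cationic amino acid importers SLC7A1 and SLC7A2 went from a log2 ratio of 2.79 ± 0.205 to 2.29 ± 0.166. SLC7A1 fell (slope -0.06 ± 0.02, adjusted p = 0.0334), a call lost without replicate 2. SLC7A2 rose with TMM (0.08 ± 0.02, adjusted p = 0.0115), and had a slope of -0.06 with GAPDH and ACTB. The log2 ratio of SLC20A1 to SLC20A2 went from 1.53 ± 0.127 to 1.23 ± 0.124. The slope of SLC20A2 was -0.09 ± 0.03 (adjusted p = 0.0256) and its call was lost without replicate 2.

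The remaining 3 pairs overlapped between 0 and 4 h. The glucose carriers SLC2A1 and SLC2A3 had a log2 ratio of 1.64 ± 0.218 at 0 h and 1.86 ± 0.272 at 4 h. SLC2A3 had 29.8, 29.96 and 32.7 CPM at 0 h, 24.6, 20.4 and 27.5 at 1 h, 25.8, 21.5 and 25.6 at 2 h and 24.9, 22.3 and 25.4 at 4 h. It was lower at 4 h than at 0 h by 0.35 log2 units (adjusted p = 0.0147), and its 1, 2 and 4 h libraries overlapped. Its slope of -0.07 lay at the threshold (adjusted p = 0.0547, 0.0222 with the block and 0.0497 with DESeq2), and it fell with library totals and with GAPDH and ACTB. SLC1A4 and SLC1A5, exchangers of alanine, serine, cysteine and glutamine, kept a log2 ratio of -2.71 ± 0.197 and -2.62 ± 0.261. Their slopes were 0.05 ± 0.02 and 0.03 ± 0.02 with TMM (adjusted p = 0.05 and 0.228, and 0.00209 and 0.0119 with the block), and -0.09 and -0.11 with GAPDH and ACTB. The lactate carriers SLC16A1 and SLC16A3 had slopes of -0.0098 ± 0.02 and 0.07 ± 0.05 (adjusted p = 0.629 and 0.288). SLC16A1 fell with library totals (-0.049, adjusted p = 0.00729) and with GAPDH and ACTB (-0.148, adjusted p = 8.3e-07), and SLC16A3 passed with neither. Their log2 ratio was 6.47 ± 0.232 at 0 h and 6.16 ± 0.304 at 4 h, and SLC16A3 had 29.6 counts on average.

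**Figure D4:**
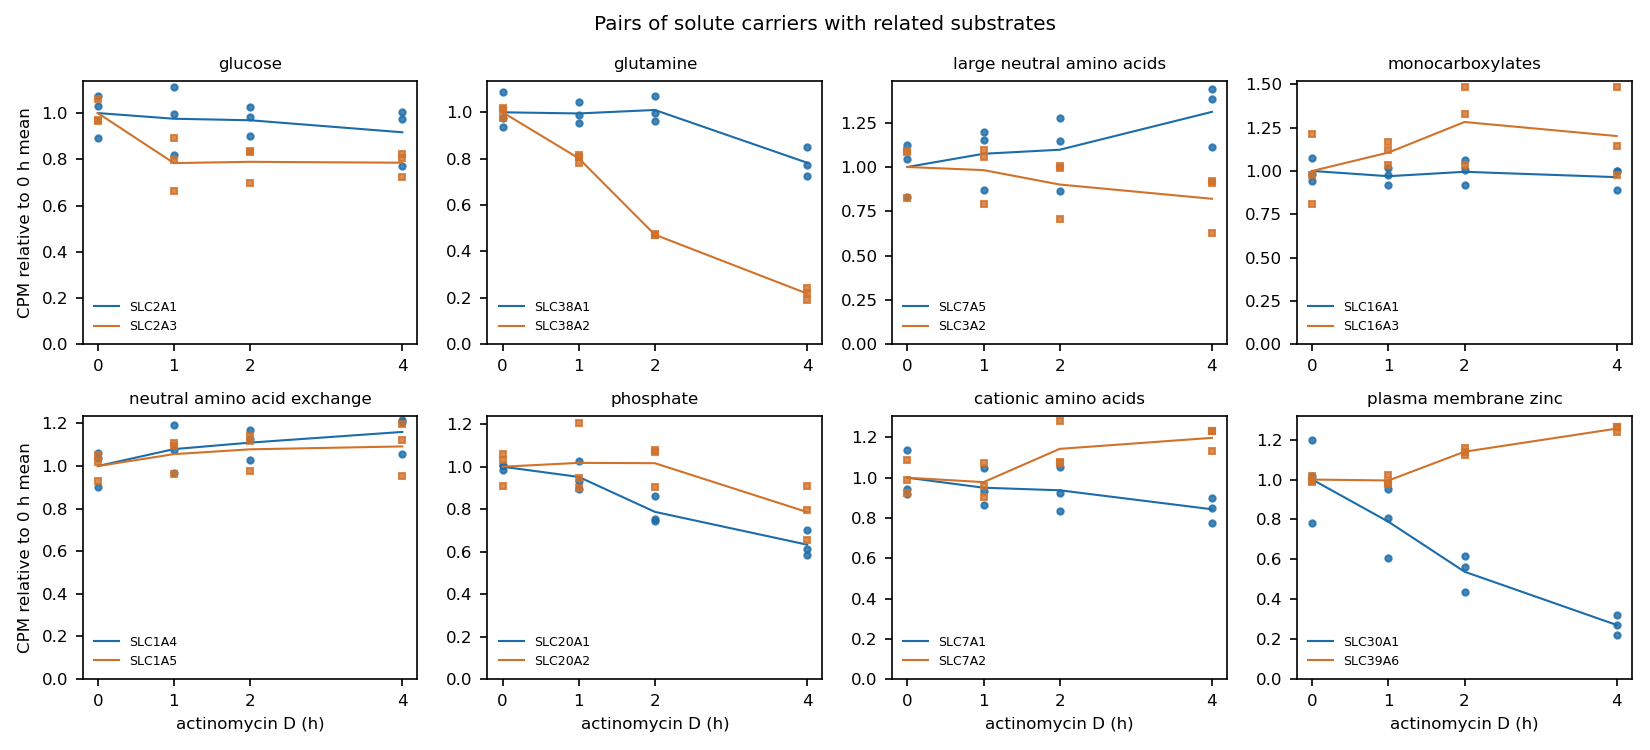
CPM divided by each gene's mean at 0 h against hours of actinomycin D for 8 pairs of solute carriers, with 1 point per library and lines through the means (n = 3). SLC38A2 and SLC30A1 fall far below their partners; TMM scaling moves both genes of a panel alike, and the rises of SLC7A5, SLC7A2 and SLC39A6 do not hold with GAPDH and ACTB.

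In the first hour, SLC38A2 was the 1 member past the test, lower by 0.32 log2 units (adjusted p = 0.0263), against 2.24% of all tested genes lower and 0.349% higher. Its call was lost when any 1 replicate number was left out, where 0.00831 to 1.31% of all tested genes were still lower. The count of members higher at 1 h was 0 with edgeR and 0 with DESeq2, and 4 members were higher at an unadjusted p below 0.05. In the fit with a replicate block, 6 members were lower and 8 higher (4.65% and 6.2%, against 10.5% and 6.18% of all tested genes). The 6 were SLC38A2, SLC30A1, SLC10A7, SLC19A2, SLC16A9 and SLC2A3, with log2 changes of -0.25 to -0.40, and adjusted p with the block of 4.52e-07, 0.000559, 0.00764, 0.00523, 0.0432 and 0.0014. The 8 were SLC43A1, SLC7A5, SLC5A6, SLC26A6, SLC39A13, SLC29A2, SLC29A4 and SLC4A2, with log2 changes of 0.10 to 0.30. No member changed in opposite directions, past the test, from 0 to 1 h and from 1 to 4 h without a block.

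The other 2 of the 5 highest carriers were SLC5A6 and SLC1A5. SLC5A6 (chr2:27199587-27212958, minus strand) had 633, 704 and 528 CPM at 0 h and 866, 902 and 676 at 4 h. The groups overlapped because replicate 3 was low throughout, and its slope of 0.10 ± 0.03 with TMM (adjusted p = 0.0118) was lost without replicate 1, with library totals and with GAPDH and ACTB. SLC1A5 had 508, 493 and 448 CPM at 0 h and 579, 543 and 461 at 4 h.

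Related gene lists were counted in the same fits, where 32.1% of all tested genes fell and 30.7% rose with TMM. With GAPDH and ACTB, 64.2% of all tested genes fell. The 36 tested SLC25A genes gave 6 falling and 12 rising members with TMM (16.7% and 33.3%), with a median slope of 0.05, and 21 falling with GAPDH and ACTB. Of 26 tested solute carriers under other symbols, 6 fell and 7 rose with TMM, and 23 fell with GAPDH and ACTB, with slopes from -0.25 in SLCO5A1 to 0.10 in SLC35B2. Of 21 transporter partners and regulators, 4 fell and 7 rose with TMM, and 16 fell with GAPDH and ACTB. The steepest fall was that of SGK1, a kinase that regulates many carriers, at -1.10 ± 0.09 (adjusted p = 3.91e-08), and the highest slope was 0.26 ± 0.09 in MLXIPL. Of 14 tested ion pump genes, 2 fell and 5 rose with TMM, and 8 fell with GAPDH and ACTB, with slopes from -0.16 in ATP1B1 to 0.19 in ATP13A1. Of 18 ABC transporters, 11 rose with TMM and the other 7 did not pass, and 3 fell with GAPDH and ACTB, with slopes from 0.03 in ABCC4 to 0.24 in ABCA2. Differences between these lists were not tested.

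The members just inside the count threshold were SLC26A10, with a mean of 10.0 counts and 4 to 17 per library, and SLC16A5, with 11.4. Just outside were SLC9A9, with 9.75, and SLC10A4, with 9.25. SLC26A10 is annotated as a pseudogene, and another gene on its strand covers 82.9% of its exon bases. Its slope was 0.11 ± 0.12 and that of SLC16A5 0.13 ± 0.10 (adjusted p = 0.439 and 0.265). In all, 21 of the 129 members had at least 10% of their exon bases under exons of another gene, 6 of them on the same strand. SLC4A2, SLC1A5, SLC2A1, SLC16A3 and SLC37A4 shared 14.7 to 27.1% with a gene on the opposite strand, and how reads there were counted is not given in the sources used here.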

How the data were processed

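RNA-Seq was available from 12 A673 libraries, 3 per time of actinomycin D. For each gene symbol, the authors deposited whole-number raw counts. The submitters' processing notes name FastQC, STAR and hg19, whereas the study's methods describe Salmon on GRCh38 for libraries of this kit in general, so the counter, its annotation and its strand setting are not given in the sources used here. Columns were matched to samples by title, with 0 left unmatched. The labels do not say whether replicates came from separate days, so p-values cover only the spread between these samples. Replicates of a time differed by more than sampling noise (chi-square per degree of freedom 3.07 to 8.15 over 12 pairs).

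The 12032 genes averaging 10 counts or more were fitted in edgeR 4.0.16 (R 4.3.3) with TMM factors by glmQLFit and glmQLFTest, with time in hours as a number, or as 4 groups, without a block. P-values were adjusted over all tested genes by the Benjamini-Hochberg method at 0.05, the SE came from the F statistic, and a half-life is -1 divided by the slope. The common biological coefficient of variation was 0.0905. Replicate numbers, taken from the labels, paired the libraries: same-numbered libraries deviated together from the means of their times (18 pairs, mean correlation 0.431, from 0.3 to 0.612), and others did not (36 pairs, mean -0.212). Deviations within a time cancel out, so the second mean follows from the first and is not separate evidence. The fit was tested on simulated data with 200 changed genes.

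Members and lists were chosen with earlier results of these data known. Named were the 10 steepest falling and rising members that moved alike in all replicates, the extremes of each substrate class, the 5 highest per length, those at the count threshold, members with opposite called changes, and fixed pairs. SLC30A3, SLC30A6, SLC30A7, SLC33A1, SLC45A4, the SLC29, SLC39 and first-hour members, SLC16A7, SLC35A3, SLC45A3 and SLC7A6 were named after their values were seen. Transcript features came from GENCODE version 44 (GRCh38) by symbol, for 129 of 129 members. Alternatives were other scalings, DESeq2 1.42.0, a replicate block, stricter or no count filters, fewer times and the removal of each replicate. Exact tests used scipy 1.17.1.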

Additional observations from a re-analysis of the deposited data

How the results depend on the processing

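With library totals, members lower and higher were 31 and 20 for the slope (39.1% and 18.7% of all tested genes), 30 and 21 for 4 h against 0 h (38.4% and 17.6%) and 23 and 7 for 4 h against 1 h (35.1% and 12.4%). With GAPDH and ACTB they were 72 and 0, 65 and 0 and 50 and 0, with 2 lower at 1 h. Of all tested genes, 64.2%, 63.3%, 52.6% and 4.46% were lower in these comparisons. Named slopes that turned negative with GAPDH and ACTB, main or alternative value being past the test, were -0.041 in SLC5A6, -0.0425 in SLC7A5, -0.11 in SLC1A5, -0.0876 in SLC1A4, -0.0628 in SLC7A2 and -0.0474 in SLC39A6. This follows from the shift of the median of all genes to -0.128. With 0, 1 and 2 h only, 5 members fell and 10 rose (18.3% and 11.9% of all tested genes). The slopes of SLC38A1 and SLC20A2 turned to 0.0176 and 0.0222 there. Mean CPM of SLC38A1 was 280, 279 and 283 at 0, 1 and 2 h, then 219 at 4 h. That of SLC20A2 was 66.95, 68.2 and 68.1, then 52.7. Both were lower only at 4 h, in the libraries that this fit left out. The cause of the lower counts of members was not tested, though fewer samples entered that fit. With the replicate block, 6 members were lower and 8 higher at 1 h and 48 higher at 4 h than at 1 h. The block also brought the slopes of SLC3A2, SLC2A3, SLC1A5 and SLC1A4 past the test and changed no other call among the 39 named slopes.

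Leaving out 1 replicate number gave 14 to 21 members lower and 28 to 36 higher for the slope (28.8 to 30.6% and 24.7 to 27.7% of all tested genes). For 4 h against 0 h it gave 14 to 21 and 24 to 35 (27.2 to 30.3% and 21.0 to 26.1%). For 1 h against 0 h it gave 0 and 0 each time (0.00831 to 1.31% and 0 to 0.0914%). For 4 h against 1 h it gave 12 to 17 and 12 to 25 (23.1 to 27.4% and 16.7 to 22.1%). The lowest counts of higher members came without replicate 2. DESeq2's size factors and Wald test, no count filter and a mean of at least 100 counts (91 members) kept all 8 counts within 1.5 times. At 3 libraries per time, 38 members had under 100 counts on average, and the lowest of them can have wide errors. The SE was 0.10 in SLC44A5 and 0.04 in SLC29A3, which had 81.6 counts.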
